A study of Ovis aries with 15 samples.

Results

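The comparison set the HG libraries, HG1 to HG5, against the CON libraries, CON1 to CON5, with RNA from the ruminal epithelium of Hu lambs, all male and 6 months old. These are 10 of the 15 libraries of the series, and they were taken by the labels alone. From the title of the study, HG was taken to mean a high-grain diet fed without pelleting and CON the control diet, and the remaining 5 libraries carry the label HP. Total RNA was extracted with Trizol, per the labels' protocols. The labels give neither the grain content nor the length of feeding, and they do not say that each library came from its own lamb, so p-values measure the spread between libraries.

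The ruminal epithelium is a stratified squamous lining whose basal cells sit on a basement membrane, divide and move up through spinous and granular layers to a cornified surface. Its cells take up the short-chain fatty acids made by microbial fermentation, turn part of the butyrate into ketone bodies and export protons through sodium-proton exchange. A diet rich in grain is fermented faster than forage, which raises the acid load on this lining. Gene levels were in FPKM, that is, fragments per kilobase of transcript, scaled to the mapped total of the library, and differences were taken on log2(FPKM + 1), HG minus CON.

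The libraries were not alike within a group, and this touches every result that follows. CON1 and CON3 stood apart, with 31.5% and 34.1% of their summed FPKM in ribosomal protein genes, whereas the other 8 libraries held 24.6% to 26.9%. Their median-ratio factors, a measure of how high a library's genes run against the typical library, were the lowest of the 10, at 0.886 and 0.732. On the first principal component, which held 41.0% of the variance, the HG libraries lay between 7.30 and 27.2, while CON1, CON3 and CON5 lay at -38.3, -71.6 and -18.9, CON4 at 4.40 and CON2, at 19.1, among the HG libraries. The median-ratio factor averaged 1.09 ± 0.0291 in HG and 0.947 ± 0.140 in CON (SD, n = 5 each, exact two-sided permutation p = 0.0317). Without CON1 and CON3 the exact permutation p was 0.125 (n = 5 and 3), and the HG and CON means were 1.09 and 1.04. With any 1 of HG2 to HG5 left out, the exact permutation p was 0.0556 to 0.0794.

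Markers of the rumen epithelium were abundant in all libraries, with a summed level of 6455 to 8409 FPKM in HG and 5590 to 6937 FPKM in CON over 16 genes. Smooth muscle differed between libraries of both groups. DES, the muscle intermediate filament desmin, had 154, 1579, 1258, 2.99 and 2.59 FPKM in HG1 to HG5, against 481, 2.89, 3.20, 7.30 and 218 FPKM in CON1 to CON5. The muscle list summed to 233 to 5620 FPKM in HG and 198 to 1729 FPKM in CON, so HG2 and HG3 carried the most muscle RNA. Of 6 mast cell markers, 4 stayed below 1 FPKM in all 10 libraries, as did 5 of 12 markers of B and plasma cells. The mast cell list summed to 3.78 to 9.53 FPKM in HG and 3.03 to 11.1 FPKM in CON, and the B and plasma cell list to 4.29 to 33.02 FPKM in HG and 25 to 79.6 FPKM in CON. In bulk tissue, fewer cells of a type and less RNA per cell cannot be told apart.

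**Figure D1:**
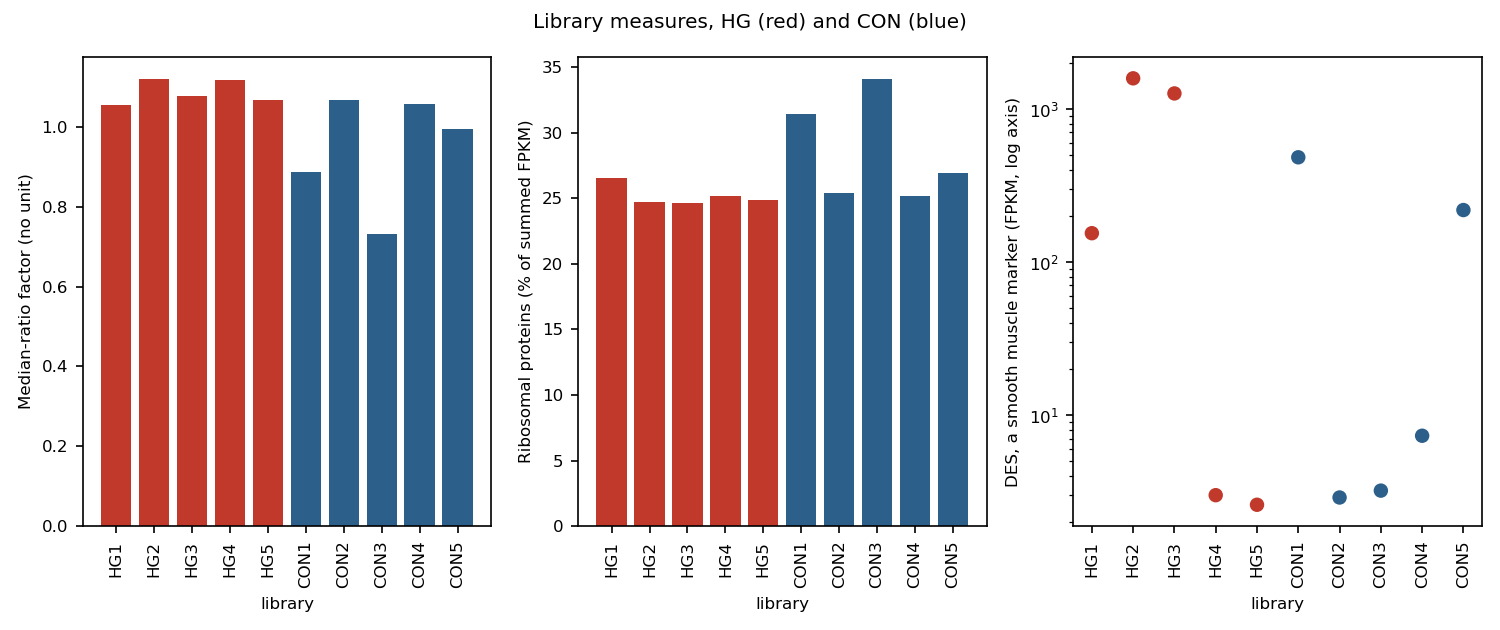
Median-ratio factor, share of summed FPKM in ribosomal protein genes (percent) and DES level (FPKM, log axis) of each library, HG in red and CON in blue, 1 bar or point per library. CON1 and CON3 have the lowest factors, 0.886 and 0.732, and the highest ribosomal shares, 31.5% and 34.1%, and HG2 and HG3 have the highest DES.

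Across the 12532 genes that reached 1 FPKM in 5 or more of the 10 libraries, 1 gene passed limma's test at an adjusted p below 0.05. It was higher in HG (0.00798% of the genes tested), and 0 genes were lower. The gene is an unnamed model, Ovis_aries_newGene_21991, which the authors' tables list without a symbol. It had 5.59, 6.38, 4.92, 5.04 and 2.08 FPKM in HG1 to HG5, against 0.0281, 0.0160, 0.0360, 0.00670 and 0.00830 FPKM in CON1 to CON5. The lowest HG library, HG5, was still far above the highest CON library. All CON libraries were below 1 FPKM, so the gene passed the filter only because all 5 HG libraries reached 1 FPKM. A gene of this kind enters the test with its groups already apart, so that gap is not separate evidence of a difference. The log2 difference was 2.45 ± 0.21 (SE) with a limma adjusted p of 0.00145. In the HP libraries it had 0.0525, 0, 0.00641, 4.11 and 0.0525 FPKM in HP1 to HP5, so 1 HP library lay within the HG range. The call was lost without CON1 and CON3, where limma's smallest adjusted p over all genes was 0.0701, and without HG2 and HG3, where it was 0.0543. The difference relative to the median gene was 2.28 with all libraries, 2.40 without CON1 and CON3 and 2.13 without HG2 and HG3.

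No gene with a symbol passed, and limma's smallest adjusted p among them was 0.138. At an unadjusted limma p below 0.05, 2482 genes were higher in HG (19.8% of the genes tested) and 686 were lower (5.47%). The median gene was 0.17 higher in HG on the log2 scale, and the log2 differences that follow for named genes and lists are relative to that median where they are not given with a p. Their SEs, and every unadjusted p, are those of the fit before that median was subtracted. With median-ratio scaling, which brings the median difference close to 0, the unadjusted counts were 1485 higher (11.8%) and 1448 lower (11.6%), so the excess of higher genes was present only before scaling. Without CON1 and CON3 the counts were 1163 higher (9.28%) and 549 lower (4.38%), and the median difference was 0.06. Without HG2 and HG3 they were 1042 higher (8.31%) and 290 lower (2.31%).

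The libraries of HG and CON did not overlap for 571 genes that were higher in HG (4.56% of the genes tested) and for 145 that were lower (1.16%). After median-ratio scaling these were 290 (2.31%) and 342 (2.73%), and 286 higher and 144 lower genes kept apart under both scales. CON2 mattered most for the calls. Leaving it out, limma called 906 genes higher (7.23%) and 237 lower (1.89%) at an adjusted p below 0.05, against 1 and 0 with it. CON2 was the CON library that lay among the HG libraries on the first principal component, at 19.1. A fit without it therefore sets the groups further apart, and its calls are not separate evidence of a difference. No other single library left out gave more than 2 calls in a direction.

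**Figure D2:**
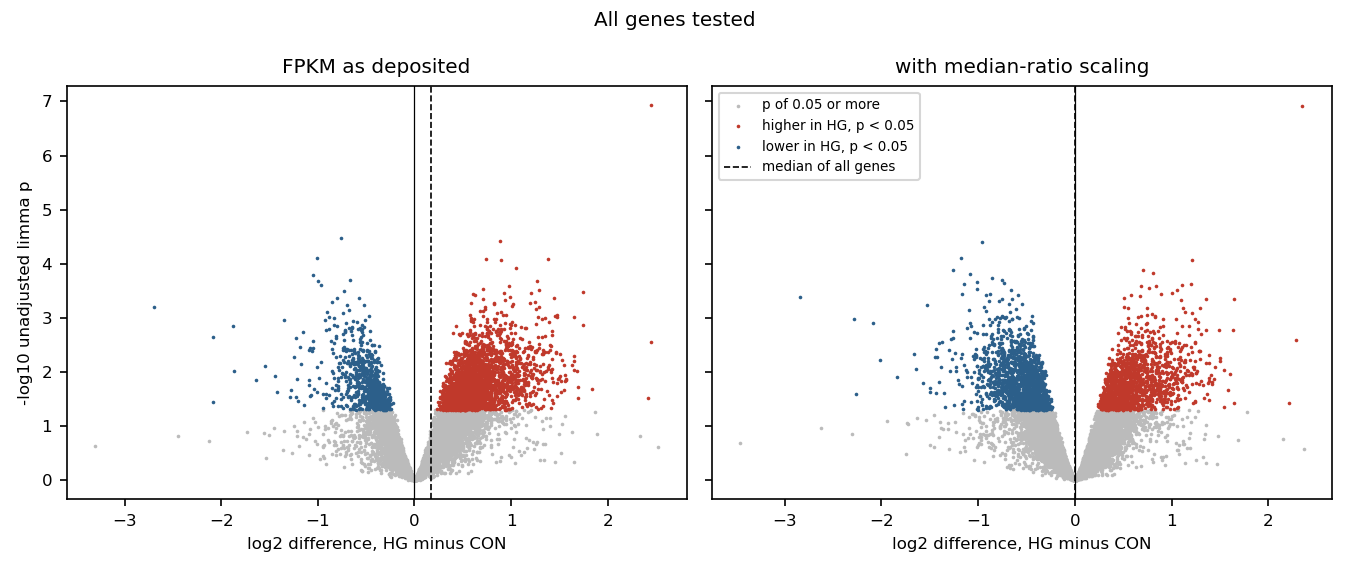
Log2 difference, HG minus CON, against -log10 of limma's unadjusted p for the 12532 genes tested, as deposited (left) and after median-ratio scaling (right), 1 point per gene, with the dashed line at the median gene. Higher genes outnumber lower ones at left, 2482 to 686, and not at right, 1485 to 1448, and the point far above the rest is the called gene.

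Among the genes higher in HG with the smallest p, BCAR1, a docking protein of focal adhesions, had 19.7, 20.2, 27.1, 27.9 and 25 FPKM in HG1 to HG5, against 13.4, 13.6, 10.3, 12.5 and 12.5 FPKM in CON1 to CON5. The groups did not overlap, and the CON libraries lay close together (log2 difference 0.88 ± 0.14, SE, unadjusted limma p 3.79e-05, or 0.71 ± 0.14 relative to the median gene). LZTR1, an adaptor of a ubiquitin ligase that acts on RAS proteins, had 9.56, 5.14, 11, 9.31 and 9.81 FPKM in HG1 to HG5, against 2.13, 3.73, 1.80, 4.28 and 2.33 FPKM in CON1 to CON5. HG2 was the lowest HG library and still above all CON libraries (relative log2 difference 1.21 ± 0.23). KANSL3, a subunit of a histone acetyltransferase complex, had 7.98, 9.0, 9.56, 8.16 and 8.34 FPKM in HG1 to HG5, against 3.62, 5.33, 2.21, 3.95 and 5.74 FPKM in CON1 to CON5. All HG libraries lay above all CON libraries (0.77 ± 0.20). ITPRIP, which binds inositol trisphosphate receptors, had 9.73 to 12.2 FPKM in HG, against 4.43 to 7.30 FPKM in CON, and MED25, a Mediator subunit, had 16.1 to 20.2 FPKM in HG, against 8.29 to 12.9 FPKM in CON. For these 5 genes the groups also kept apart after median-ratio scaling, and the relative differences without CON1 and CON3 were 0.78, 1.10, 0.63, 0.71 and 0.52.

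Among genes whose groups kept apart under both scales, several had CON libraries far below the others. TSN, the RNA-binding protein translin, had 23.9, 23.1, 29.2, 26.3 and 25 FPKM in HG1 to HG5, against 5.77, 21.2, 3.85, 11.7 and 7.21 FPKM in CON1 to CON5, with CON2 just under the HG range. ZFP36L1, which binds AU-rich elements and speeds mRNA decay, had 71.4, 66.4, 69.1, 71.2 and 59.6 FPKM in HG1 to HG5, against 14.4, 58.8, 4.27, 42.3 and 22.6 FPKM in CON1 to CON5. CON2 and CON4 were close to HG and CON3 was far below, and the relative log2 difference was 1.48 ± 0.53 with all 10 libraries and 0.74 without CON1 and CON3. WIPF2, a regulator of actin assembly, had 7.0 to 8.79 FPKM in HG, against 0.226 to 6.48 FPKM in CON, PRELP, a matrix proteoglycan, had 12.1 to 21.6 FPKM in HG, against 1.44 to 11.7 FPKM in CON, and the transcription factor NFIX had 8.79 to 15.9 FPKM in HG, against 1.10 to 8.59 FPKM in CON. JUN, a subunit of the AP-1 transcription factor, had 86.3, 67.3, 81.6, 49.95 and 54.7 FPKM in HG1 to HG5, against 38.8, 0.186, 2.75, 45.3 and 37.8 FPKM in CON1 to CON5. CON2 and CON3 were near 0 while the other CON libraries were just under the lowest HG library, and its relative difference was 2.25 ± 0.97. PCSK6, a proprotein convertase, had 17 to 19.6 FPKM in HG, against 8.0 to 14.2 FPKM in CON. FZD6, a receptor of the Wnt pathway whose groups were apart only before scaling, had 5.81 to 14.3 FPKM in HG, against 1.57 to 5.60 FPKM in CON.

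Among genes lower in HG, SYPL1, a membrane protein of transport vesicles, had the smallest p. SYPL1 had 23.5, 19.2, 20.6, 20.4 and 23.7 FPKM in HG1 to HG5, against 32, 34.1, 39.2, 42.3 and 38 FPKM in CON1 to CON5. The groups were wide apart and each was tight, and the log2 difference was -0.76 ± 0.12 (SE, unadjusted limma p 3.34e-05). Relative to the median gene it was -0.93 ± 0.12, and -0.86 without CON1 and CON3. DNAJC24, a co-chaperone that takes part in making diphthamide on elongation factor 2, had 5.49, 7.10, 6.57, 7.15 and 7.66 FPKM in HG1 to HG5, against 10.3, 10.4, 15.5, 11.3 and 12.4 FPKM in CON1 to CON5. DECR1, a mitochondrial reductase that handles polyunsaturated fatty acids, had 78.9, 61.6, 68.3, 72.3 and 77.3 FPKM in HG1 to HG5, against 109, 100.2, 89.995, 110.0 and 107 FPKM in CON1 to CON5. Neither gene's groups overlapped, with relative differences of -0.90 ± 0.14 and -0.69 ± 0.11. IER3IP1, a protein of the endoplasmic reticulum, had 8.05 to 9.53 FPKM in HG, against 12.4 to 13.4 FPKM in CON. UBE2T, a ubiquitin-conjugating enzyme of DNA crosslink repair, had 4.02 to 5.12 FPKM in HG, against 6.75 to 8.42 FPKM in CON, and SENP8, a protease of NEDD8, had 5.88 to 8.56 FPKM in HG, against 9.44 to 12.3 FPKM in CON. CACYBP, a binding partner of calcyclin, had 24.6 to 28.6 FPKM in HG, against 33.5 to 56.3 FPKM in CON. CBX1, a heterochromatin protein, had 2.36 to 4.94 FPKM in HG, against 4.90 to 8.75 FPKM in CON, where HG4 reached the lowest CON library.

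Of the lower genes with the largest differences, CISD1 had 1 CON library far from the rest. CISD1, an iron-sulfur protein of the outer mitochondrial membrane, had 11.8, 5.35, 8.55, 13.9 and 13.4 FPKM in HG1 to HG5, against 109, 14.7, 29.7, 28.8 and 14.6 FPKM in CON1 to CON5. CON1 was far above the other CON libraries, of which CON2 and CON5 were close to the highest HG library, and the relative difference was -1.61 ± 0.48 with all libraries and -0.87 without CON1 and CON3. DERA, an aldolase of deoxyribose phosphate, had 1.57 to 2.90 FPKM in HG, against 3.08 to 10.6 FPKM in CON, with CON1 again the highest. SDR16C5, a retinol dehydrogenase, had 10.6 to 18.8 FPKM in HG, against 20.4 to 32.2 FPKM in CON and a relative difference of -0.90 ± 0.19.

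**Figure D3:**
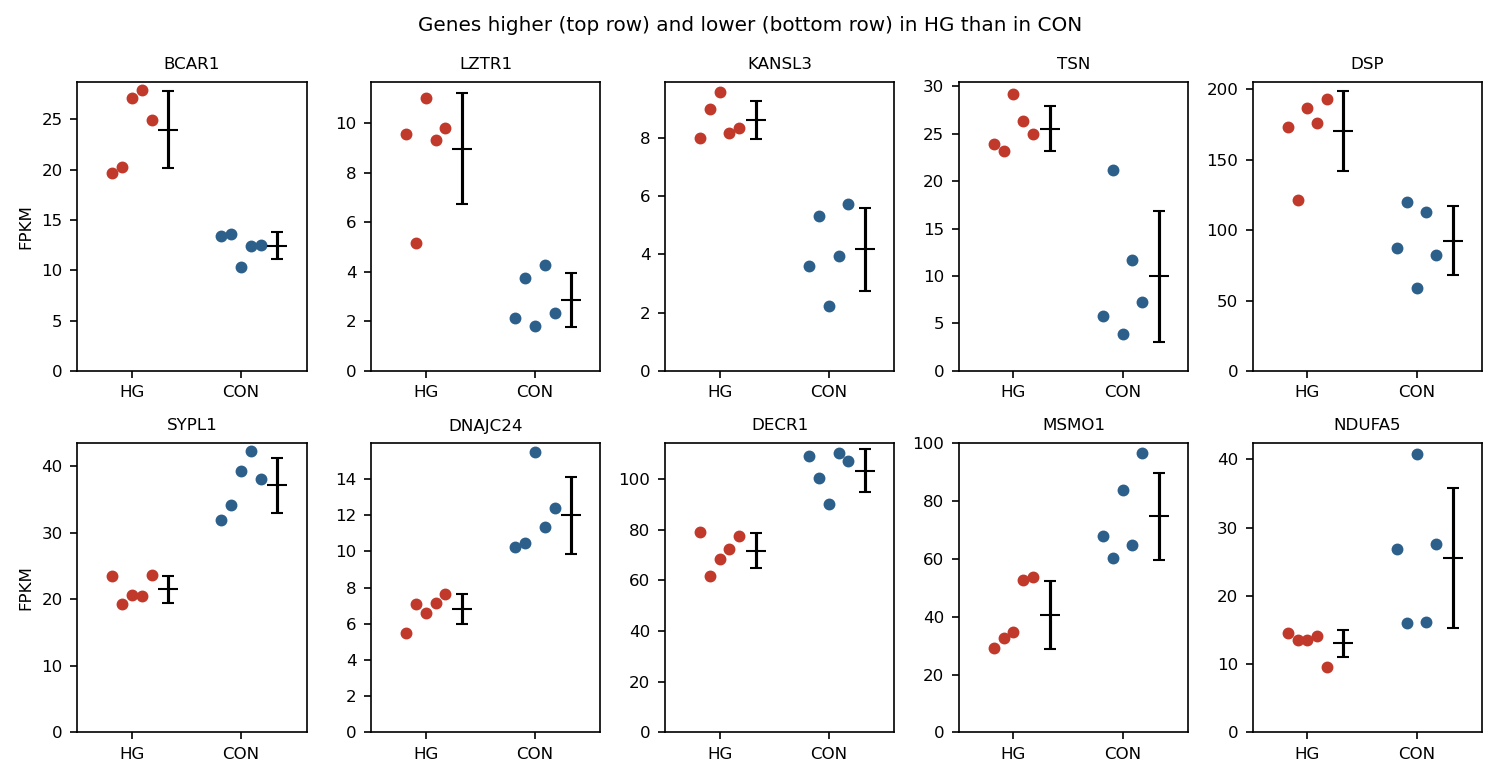
FPKM of 5 genes higher in HG (top) and 5 lower in HG (bottom), HG at left and CON at right in each panel, 1 point per library in the order 1 to 5, with the mean and SD (n = 5 each) beside the points. The groups overlap in none of the 10 panels, though those of DSP do after median-ratio scaling, and TSN shows CON2 just under the HG range.

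Genes that hold basal cells to the basement membrane mostly lay higher in HG. Of 30 entries tested, 18 had an unadjusted p below 0.05 and were higher, 0 were lower, and 27 lay above the median gene (19.8% of all genes were higher), with a list median of 0.45 relative to all genes. CD151, a tetraspanin that partners laminin-binding integrins, had 22.8, 28.6, 28.8, 23.7 and 30.2 FPKM in HG1 to HG5, against 19.1, 18.6, 11.1, 15.8 and 15.2 FPKM in CON1 to CON5. The groups were apart before median-ratio scaling and overlapped after it (0.56 ± 0.16). PLEC, plectin, which ties keratin filaments to hemidesmosomes, had 47.2, 44.3, 53.4, 38.9 and 25 FPKM in HG1 to HG5, against 11.1, 36.5, 9.91, 21 and 12.4 FPKM in CON1 to CON5. HG5 lay inside the CON range, and CON2 was close to HG (1.11 ± 0.33). COL4A2, a chain of basement membrane collagen, had 45.8 to 139 FPKM in HG, against 17.8 to 50.6 FPKM in CON, with HG2 the highest. The list median was 0.28 without CON1 and CON3, with 7 of 30 at an unadjusted p below 0.05, and 0.39 without HG2 and HG3.

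Junctions between the epithelial cells carry the mechanical load of the lining and seal it. Of 13 desmosome entries, 8 were higher at an unadjusted p below 0.05 and 0 lower (median 0.41), and of 14 adherens junction entries, 9 were higher and 0 lower (median 0.36), where 19.8% of all genes were higher. DSP, desmoplakin, which links desmosomes to keratin, had 173, 121, 187, 176 and 193 FPKM in HG1 to HG5, against 87.5, 119.8, 59, 113 and 82.5 FPKM in CON1 to CON5. HG2 was the low HG library, level with CON2, the highest CON library, and the relative difference was 0.73 ± 0.20. PKP1, plakophilin of the desmosomal plaque, had 140.5, 134, 137, 198 and 138 FPKM in HG1 to HG5, against 36.4, 123, 18.1, 118 and 71.5 FPKM in CON1 to CON5. CON2 and CON4 lay close under HG while CON1 and CON3 were far lower, and the relative difference was 1.15 ± 0.45 with all libraries and 0.49 without that pair. PPL, periplakin, had 60.4 to 77.9 FPKM in HG, against 29.8 to 56.8 FPKM in CON. CDH1, E-cadherin of the adherens junction, had 39.99 to 51.7 FPKM in HG, against 16.2 to 38.3 FPKM in CON, and PARD3, a polarity protein, had 18.3 to 21.9 FPKM in HG, against 9.65 to 17.8 FPKM in CON. VCL, vinculin, had 10.3 to 21.3 FPKM in HG, against 8.0 to 10.9 FPKM in CON, and its relative difference was 0.39 ± 0.21, or 0.08 without HG2 and HG3, the libraries with the most muscle RNA.

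Tight junction genes gave 10 higher and 0 lower of 29 at an unadjusted p below 0.05, where 19.8% of all genes were higher, and with median-ratio scaling 4 higher and 0 lower, where 11.8% were. They had a median of 0.21, which was 0.09 without CON1 and CON3. CLDN1, the barrier claudin, had 91.1 to 129 FPKM in HG, against 42.9 to 92.5 FPKM in CON. AMOTL1, a junctional scaffold, had 7.49 to 17.8 FPKM in HG, against 2.32 to 8.96 FPKM in CON, with HG5 inside the CON range and CON3 the lowest. Gap junction genes had a median of -0.14, with 2 of 9 higher and 0 lower, beside 19.8% and 5.47% of all genes. GJB2, a connexin abundant here, had 996, 1099, 1223, 1209.9 and 1115 FPKM in HG1 to HG5, against 593, 999, 533, 936 and 749 FPKM in CON1 to CON5. HG1 was just under CON2, and the other HG libraries were above all CON libraries (0.43 ± 0.18). GJB6, another connexin, had 3.93 to 21.9 FPKM in HG, against 9.33 to 38.8 FPKM in CON and leaned the other way with a wide error (-1.04 ± 0.46).

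Focal adhesion genes and targets of serum response factor, which couple the actin cytoskeleton to transcription, lay above the median gene in 39 of 39 entries. Of these, 22 were higher at an unadjusted p below 0.05 and 0 lower (19.8% of all genes were higher), and the median of 0.40 was 0.35 without CON1 and CON3 and 0.26 without HG2 and HG3. SRF, the factor itself, had 8.98, 11.9, 11.5, 8.81 and 11.1 FPKM in HG1 to HG5, against 2.63, 4.35, 1.5, 6.43 and 5.76 FPKM in CON1 to CON5. All HG libraries lay above all CON libraries (1.09 ± 0.28, 0.76 without CON1 and CON3). PXN, paxillin, had 12.4, 11.1, 15.7, 9.03 and 11.1 FPKM in HG1 to HG5, against 3.29, 6.81, 0.962, 5.74 and 4.87 FPKM in CON1 to CON5. The groups kept apart here too (1.23 ± 0.33). ACTN4, the actin crosslinker alpha-actinin 4, had 115 to 169 FPKM in HG, against 36.6 to 106 FPKM in CON. MRTFA, the actin-regulated cofactor of SRF, had 7.12, 14.9, 15.1, 13.2 and 11.2 FPKM in HG1 to HG5, against 4.11, 7.38, 2.57, 5.11 and 3.40 FPKM in CON1 to CON5. HG1 lay just under CON2 (1.12 ± 0.25). A neighbouring model under the older symbol of the same gene, MKL1, looked up after these values were seen, had 5.88, 4.12, 5.17, 5.39 and 2.70 FPKM in HG1 to HG5, against 4.25, 3.97, 6.05, 5.82 and 5.38 FPKM in CON1 to CON5, which was not higher in HG, so how reads were shared between the 2 models is uncertain. Smooth muscle also uses SRF targets. With the smooth muscle score of each library as a covariate, a fit added after seeing the data, the list's median was 0.31. Whether muscle RNA accounts for the list's difference was not tested.

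Histone deacetylases, acetyltransferases and their partners were higher in 13 of 24 entries and lower in 0 at an unadjusted p below 0.05, beside 19.8% higher of all genes (median 0.35, and 0.26 without CON1 and CON3). HDAC4, a deacetylase that shuttles between cytoplasm and nucleus, had 5.31, 6.68, 7.19, 5.87 and 5.92 FPKM in HG1 to HG5, against 0.540, 4.86, 0.430, 3.41 and 1.43 FPKM in CON1 to CON5. CON2 was close to HG, and CON1 and CON3 were far below. The relative difference was 1.25 ± 0.36 with all libraries and 0.79 without CON1 and CON3. SIN3B, a scaffold of a deacetylase complex, had 6.93 to 9.25 FPKM in HG, against 1.63 to 6.52 FPKM in CON, with no overlap.

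Growth factor pathways gave counts of 13 higher and 0 lower of 32 for the IGF axis, 14 and 0 of 39 for RAS and ERK, 12 and 0 of 27 for Notch and 7 and 1 of 20 for the EGF receptor axis, beside 19.8% higher and 5.47% lower of all genes. With median-ratio scaling, 10 of 32, 7 of 39, 9 of 27 and 5 of 20 were higher, beside 11.8% of all genes. Their medians were 0.26, 0.20, 0.18 and 0.18, and 0.15, 0.11, 0.09 and 0.11 without CON1 and CON3. IGF2R, the clearance receptor for IGF2, had 10.6, 9.81, 8.44, 8.65 and 6.65 FPKM in HG1 to HG5, against 0.876, 7.45, 0.614, 5.65 and 2.73 FPKM in CON1 to CON5. CON2 lay inside the HG range. IGFBP5, an IGF binding protein, had 62.4 to 109 FPKM in HG, against 32.3 to 70.3 FPKM in CON, and the kinase AKT2 had 20.2 to 27.4 FPKM in HG, against 6.66 to 17.8 FPKM in CON, with no overlap. EGFR, the receptor for EGF, had 22.5, 15.8, 14.3, 17 and 14.9 FPKM in HG1 to HG5, against 2.40, 15.7, 1.63, 12.5 and 5.34 FPKM in CON1 to CON5, again with CON2 inside the HG range and CON1 and CON3 far lower. GRB2, the adaptor that joins such receptors to RAS activation, ran the other way with 7.07, 8.23, 13, 8.37 and 10.9 FPKM in HG1 to HG5, against 19.6, 7.94, 16.1, 22.2 and 23.5 FPKM in CON1 to CON5. CON2 was at the HG level while the other CON libraries were above it, and the relative difference was -0.96 ± 0.27.

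Downstream, MAP2K1, the kinase that activates ERK, had 53.4, 68.3, 27.2, 70.9 and 72.3 FPKM in HG1 to HG5, against 19.7, 24, 16.1, 28.5 and 26.9 FPKM in CON1 to CON5. HG3 lay inside the CON range and the other HG libraries were far above it (1.08 ± 0.26). MKNK2, a kinase that phosphorylates the cap-binding protein, had 69.3 to 110.0 FPKM in HG, against 16 to 72.9 FPKM in CON. ELK1, a transcription factor phosphorylated by ERK, had 5.89 to 8.44 FPKM in HG, against 2.94 to 5.81 FPKM in CON. In the Notch list, NOTCH3 had 25.3, 25.6, 27.3, 25 and 19.9 FPKM in HG1 to HG5, against 8.08, 19.9, 4.12, 15.6 and 11.6 FPKM in CON1 to CON5, where HG5 and CON2 were nearly level, and LFNG, which adds sugar to Notch receptors, had 4.40 to 7.07 FPKM in HG, against 2.55 to 4.13 FPKM in CON.

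Immediate early genes, transcribed within minutes of a stimulus, gave 13 higher and 0 lower of 28 (median 0.25, and 0.27 without CON1 and CON3), where 19.8% of all genes were higher. Median-ratio scaling gave 8 higher and 0 lower, where 11.8% of all genes were higher. EGR1 had 17.4, 7.29, 6.77, 4.02 and 8.43 FPKM in HG1 to HG5, against 1.46, 3.57, 0.843, 4.38 and 4.01 FPKM in CON1 to CON5. HG1 was the highest library, and HG4 lay inside the CON range (1.16 ± 0.38). ZFP36, a relative of ZFP36L1, had 57.8 to 68.6 FPKM in HG, against 16.7 to 54.5 FPKM in CON, and KLF4, a factor of the upper epithelial layers, had 67.7 to 87 FPKM in HG, against 19.9 to 58.7 FPKM in CON. Clock genes lay above the median gene in 22 of 23 entries and 8 were higher and 0 lower at the unadjusted threshold (median 0.22), and 5 and 0 with scaling. PER2, a repressor of the clock, had 2.19 to 5.55 FPKM in HG, against 0.350 to 3.02 FPKM in CON, and the output factor TEF had 18.6 to 25.6 FPKM in HG, against 7.99 to 19.7 FPKM in CON. HLF, another output factor, had 1.6 to 5.48 FPKM in HG, against 0.647 to 1.47 FPKM in CON. The labels used here give no time of sampling.

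Energy-sensing genes of the AMPK and mTOR pathways gave 11 higher and 0 lower of 29 (median 0.17), where 19.8% of all genes were higher, and 8 higher and 1 lower with median-ratio scaling, where 11.8% were higher. CAMKK1, a calcium-dependent kinase upstream of AMPK, had 2.60 to 4.33 FPKM in HG, against 1.49 to 2.07 FPKM in CON. Its relative CAMKK2 had 6.62 to 11 FPKM in HG, against 0.706 to 4.82 FPKM in CON, and neither gene's groups overlapped. SIK2, a kinase of the AMPK family, had 7.47, 5.87, 7.91, 8.0 and 5.65 FPKM in HG1 to HG5, against 0.742, 5.26, 0.504, 5.08 and 1.40 FPKM in CON1 to CON5. CON2 and CON4 were just under HG and the other CON libraries were far lower. Transcription factors of the epithelium gave 13 higher and 0 lower of 41 (median 0.19), where 19.8% of all genes were higher, and with scaling 5 higher and 1 lower, near the 11.8% of all genes. PAX9, a factor of the foregut and oral epithelium, had 74, 74.8, 51.5, 62.1 and 78 FPKM in HG1 to HG5, against 22.5, 62.4, 12.4, 23.1 and 17.4 FPKM in CON1 to CON5. CON2 was the exception in CON, inside the HG range (1.31 ± 0.34). SOX15, a factor of squamous cells, had 14.4 to 18.4 FPKM in HG, against 10.6 to 13.5 FPKM in CON, and the retinoic acid receptor RARA had 19.9 to 24.7 FPKM in HG, against 9.03 to 17.2 FPKM in CON, and in both the groups were apart before median-ratio scaling and overlapped after it.

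Genes of acid uptake and acid removal showed little difference as a group. Of 20 short-chain fatty acid and acid-base transporters tested, 5 were higher and 0 lower at an unadjusted p below 0.05, near the 19.8% of all genes, and with scaling 2 of 20 were higher. SLC9A3, the apical sodium-proton exchanger, had 39.9, 54.3, 55, 62 and 31.2 FPKM in HG1 to HG5, against 12.3, 36, 5.23, 38.1 and 14.4 FPKM in CON1 to CON5. HG5 lay inside the CON range, and CON1, CON3 and CON5 were low (1.25 ± 0.45, 0.71 without CON1 and CON3). SLC26A2, a sulfate transporter, had 37.8 to 61.5 FPKM in HG, against 10.5 to 59.5 FPKM in CON, with CON2 level with the highest HG libraries. Carbonic anhydrases gave 1 higher and 0 lower of 8 (median -0.11), beside 19.8% and 5.47% of all genes. CA12, which faces the extracellular space, had 67.9 to 102 FPKM in HG, against 36 to 89.4 FPKM in CON, and CA3 had 1.12 to 2.55 FPKM in HG, against 1.5 to 8.76 FPKM in CON.

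Sodium pump and cation channel genes gave 7 higher and 0 lower of 27 (median 0.06), near the 19.8% of all genes that were higher, and with scaling 4 higher and 2 lower. KCNK5, a potassium channel sensitive to external pH, had 59.3 to 87.6 FPKM in HG, against 25.2 to 62.8 FPKM in CON, CNNM4, a magnesium transporter of the basolateral side, had 18.1 to 24.1 FPKM in HG, against 2.16 to 19.97 FPKM in CON, and NEDD4L, the ubiquitin ligase that retrieves the epithelial sodium channel, had 6.63 to 11.7 FPKM in HG, against 1.52 to 8.42 FPKM in CON. SLC14A1, the urea transporter through which blood urea reaches the rumen, had 57.1, 53.6, 50.01, 42.1 and 57.4 FPKM in HG1 to HG5, against 26, 63.7, 15.7, 45.1 and 40.4 FPKM in CON1 to CON5. CON2 was the highest library, and its relative difference was 0.40 ± 0.30. The water channel AQP1 had 38.5 to 72.7 FPKM in HG, against 18 to 55.2 FPKM in CON. In the V-type proton pump, the a1 subunit ATP6V0A1 had 24.6 to 35.2 FPKM in HG, against 11.7 to 23 FPKM in CON, while the small e1 subunit ATP6V0E1 ran the other way with 142 to 182 FPKM in HG, against 191 to 297 FPKM in CON. Over the pump's 19 entries 1 was higher and 1 lower, with a median of -0.11, beside 19.8% and 5.47% of all genes. With scaling 1 was higher and 4 lower, beside 11.8% and 11.6%.

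Ketone body synthesis gave 3 higher and 1 lower of 16 with a median of -0.18, near the 19.8% and 5.47% of all genes. With median-ratio scaling 1 was higher and 3 lower, beside 11.8% and 11.6% of all genes. BDH1, which makes beta-hydroxybutyrate, had 491, 292, 381, 342 and 519 FPKM in HG1 to HG5, against 184, 207, 223, 179 and 339 FPKM in CON1 to CON5. CON5 overlapped HG, and the relative difference was 0.67 ± 0.21. MCEE, an epimerase on the route of propionate to succinyl-CoA, had 73.2 to 174 FPKM in HG, against 105 to 237 FPKM in CON. Fatty acid oxidation genes gave 9 higher and 4 lower of 39 with a median of 0.02, beside 19.8% and 5.47% of all genes. With scaling there were 6 of each, beside 11.8% and 11.6%. PPARA, a lipid-sensing nuclear receptor, had 5.16 to 7.94 FPKM in HG, against 2.30 to 5.63 FPKM in CON, and CPT1A, which commits fatty acids to the mitochondria, had 8.90 to 18.8 FPKM in HG, against 3.83 to 9.79 FPKM in CON. ETFA, which passes electrons from acyl-CoA dehydrogenases, had 155, 159, 94.6, 118 and 171 FPKM in HG1 to HG5, against 251, 209, 192, 213 and 205 FPKM in CON1 to CON5. It was lower in HG with no overlap (-0.81 ± 0.17), as was DECR1.

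Cholesterol and lipid synthesis held genes of both directions. Of 39 entries, 9 were higher and 3 lower at an unadjusted p below 0.05, near the 19.8% and 5.47% of all genes. The list's median was 0.08, and -0.05 without CON1 and CON3. With scaling 6 were higher and 5 lower, beside 11.8% and 11.6% of all genes. SREBF2, the transcription factor that drives the sterol genes, had 96.1, 80.2, 84.7, 106 and 109 FPKM in HG1 to HG5, against 40.2, 80.5, 26.2, 67.3 and 44.4 FPKM in CON1 to CON5. CON2 was at the HG level and CON3 the lowest (0.79 ± 0.26). ACLY, which supplies acetyl-CoA for lipid synthesis, had 34.6 to 41.8 FPKM in HG, against 15.8 to 32 FPKM in CON. FASN, the fatty acid synthase, had 19.8 to 37 FPKM in HG, against 9.24 to 30.3 FPKM in CON. Of the 3 lower entries, MSMO1 and SC5D act late in the sterol pathway. MSMO1, which removes methyl groups from sterols, had 29, 32.7, 34.8, 52.6 and 53.9 FPKM in HG1 to HG5, against 67.9, 60.3, 83.8, 64.7 and 96.6 FPKM in CON1 to CON5. The groups did not overlap, and HG1 to HG3 were the lowest (-1.06 ± 0.20). SC5D, a sterol desaturase further on, had 6.74, 7.27, 1.39, 1.58 and 8.15 FPKM in HG1 to HG5, against 9.33, 9.37, 9.02, 11.6 and 11 FPKM in CON1 to CON5. HG3 and HG4 were far below the other HG libraries, which sat just under CON (-1.27 ± 0.38).

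Glycolysis and neighbouring sugar metabolism gave 6 higher and 3 lower of 31 (median 0.03), beside 19.8% and 5.47% of all genes. With scaling these were 3 and 4, beside 11.8% and 11.6%. HK1, a hexokinase, had 38.5 to 46.8 FPKM in HG, against 22.6 to 37.4 FPKM in CON, with no overlap. FBP1, of gluconeogenesis, had 21.8 to 44.9 FPKM in HG, against 41.3 to 73.3 FPKM in CON and a relative difference of -0.84 ± 0.23.

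Nuclear genes of the respiratory chain mostly lay lower in HG relative to the median gene. Of 38 complex I entries, 0 lay above the median gene, 17 were lower and 0 higher at an unadjusted p below 0.05 (5.47% of all genes were lower), and the list median was -0.52. NDUFA5, a subunit of complex I, had 14.6, 13.6, 13.5, 14.1 and 9.61 FPKM in HG1 to HG5, against 26.9, 16.1, 40.8, 16.2 and 27.7 FPKM in CON1 to CON5. The groups kept apart, but CON2 and CON4 were close to HG while CON1, CON3 and CON5 were high, and the relative difference was -1.01 ± 0.24 with all libraries and -0.60 without CON1 and CON3. NDUFC1, another subunit, had 1.89, 2.99, 5.18, 5.53 and 2.08 FPKM in HG1 to HG5, against 11, 17, 11.5, 5.33 and 7.93 FPKM in CON1 to CON5. HG3 and HG4 were level with CON4 (-1.52 ± 0.31). NDUFV2 of the electron input module had 35 to 51.6 FPKM in HG, against 52.6 to 80.4 FPKM in CON. In complexes II to V, 9 of 19 were lower and 0 higher (median -0.48). SDHD, a membrane anchor of succinate dehydrogenase, had 93 to 122 FPKM in HG, against 128 to 174 FPKM in CON, and ATP5O, of the ATP synthase stalk, had 346 to 420.4 FPKM in HG, against 401 to 842 FPKM in CON.

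Ribosomal protein genes were lower in 31 of 77 entries and higher in 0 (median -0.53), where 5.47% of all genes were lower. RPS26 had 106, 93.4, 83.6, 77.6 and 83.9 FPKM in HG1 to HG5, against 178, 114, 216, 129.5 and 191 FPKM in CON1 to CON5. The groups did not overlap, with CON2 and CON4 nearest to HG (-1.03 ± 0.18). RPL26 had 454 to 741 FPKM in HG, against 779 to 1529.6 FPKM in CON, and RPS23 had 636 to 871 FPKM in HG, against 821 to 1905 FPKM in CON. Ribosomal proteins have many pseudogenes with which reads may be shared. Mitochondrial ribosome genes gave 18 lower and 3 higher of 71 (median -0.45), and MRPL13 had 35.2 to 46.7 FPKM in HG, against 49.4 to 87.9 FPKM in CON. The medians shrank without CON1 and CON3, the libraries with the highest ribosomal share. They were then -0.16 for ribosomal proteins, -0.13 for the mitochondrial ribosome, -0.23 for complex I and -0.20 for complexes II to V, with 13 of 77, 6 of 71, 9 of 38 and 5 of 19 lower at an unadjusted p below 0.05, where 4.38% of all genes were.

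Proteasome genes gave 13 lower and 0 higher of 42 entries (median -0.38), where 5.47% of all genes were lower. Without CON1 and CON3 the median was -0.21 and 3 of 42 were lower, where 4.38% of all genes were. PSMA4, of its core, had 30.3, 32, 30.6, 35.7 and 44.8 FPKM in HG1 to HG5, against 61.6, 40.8, 71.3, 51.6 and 63 FPKM in CON1 to CON5. HG5 lay above CON2 and the rest kept apart (-0.88 ± 0.17). Chaperones gave 8 lower and 8 higher of 51 (median -0.24), beside 5.47% and 19.8% of all genes. With median-ratio scaling 16 were lower and 4 higher, beside 11.6% and 11.8% of all genes. Without CON1 and CON3 14 were lower and 4 higher, beside 4.38% and 9.28%. CCT4, a subunit of the cytosolic chaperonin that folds actin and tubulin, had 41.3, 38.6, 36.6, 38.4 and 44.6 FPKM in HG1 to HG5, against 57.8, 50.2, 61.5, 59 and 71.6 FPKM in CON1 to CON5. HSPD1, the mitochondrial chaperonin, had 106 to 135 FPKM in HG, against 143 to 187 FPKM in CON, and MANF, a stress protein of the endoplasmic reticulum, had 65.3 to 94.5 FPKM in HG, against 92.9 to 184 FPKM in CON. HSPB8, a small heat shock protein, ran the other way with 35.6, 42.1, 45.3, 34.1 and 36.8 FPKM in HG1 to HG5, against 24.5, 22.1, 21.9, 26 and 29.7 FPKM in CON1 to CON5. CCT4, HSPD1 and HSPB8 showed no overlap, with relative differences of -0.74 ± 0.12, -0.61 ± 0.12 and 0.45 ± 0.13.

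Antioxidant genes gave 4 higher and 6 lower of 44 (median -0.16), beside 19.8% and 5.47% of all genes. With scaling 1 was higher and 11 lower, beside 11.8% and 11.6%. MGST2, a microsomal glutathione transferase, had 10.3, 10.7, 7.46, 69.2 and 13.3 FPKM in HG1 to HG5, against 118, 51.3, 38.7, 55.5 and 108 FPKM in CON1 to CON5. HG4 was at the CON level while the other HG libraries were far below all CON libraries, and the relative difference was -2.25 ± 0.53. PRDX1, a peroxiredoxin, had 82.9 to 108 FPKM in HG, against 107 to 173 FPKM in CON. NFE2L1, a transcription factor of proteasome genes, had 28.8 to 41.3 FPKM in HG, against 17.4 to 26.4 FPKM in CON.

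With median-ratio scaling, the lists that leaned higher had 15 of 30 entries higher at an unadjusted p below 0.05 for the basement membrane, 7 of 13 for desmosomes, 17 of 39 for focal adhesion and SRF targets and 10 of 24 for histone deacetylases and partners, where 11.8% of all genes were. The lists that leaned lower had 20 of 38 entries lower for complex I, 33 of 77 for ribosomal proteins and 19 of 42 for the proteasome, where 11.6% of all genes were.

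**Figure D4:**
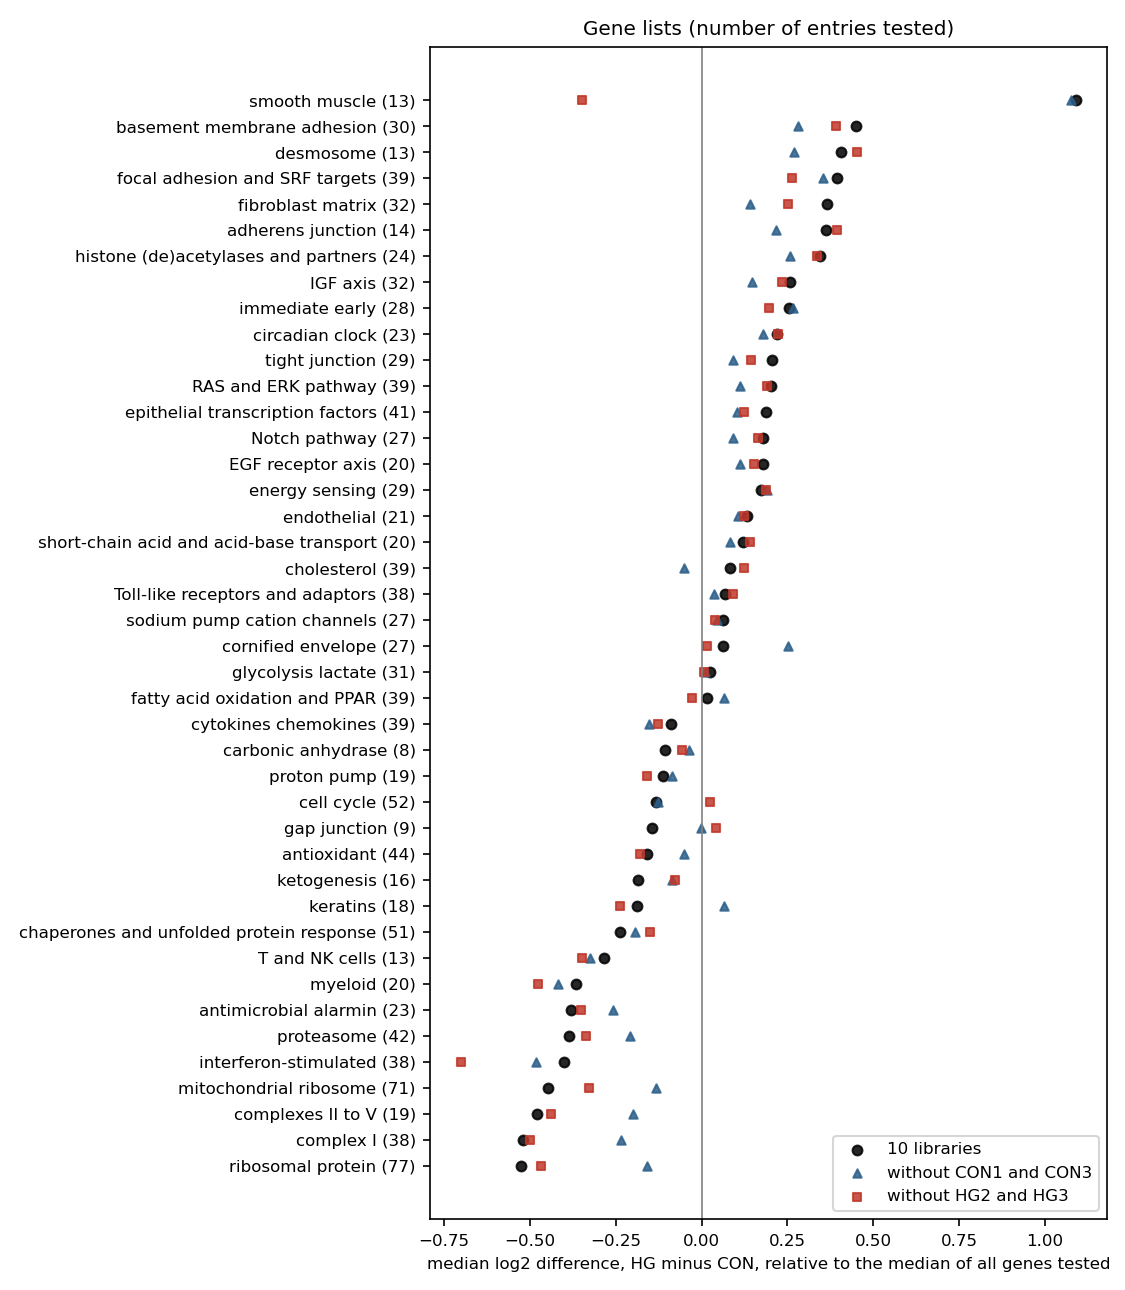
Median log2 difference of each gene list, HG minus CON, relative to the median of all genes tested, with 10 libraries (circles), without CON1 and CON3 (triangles) and without HG2 and HG3 (squares), and the number of entries tested in brackets. Smooth muscle is at 1.09 with 10 libraries and at -0.35 without HG2 and HG3, while basement membrane, desmosome and focal adhesion lists stay above 0 and complex I, ribosomal protein and interferon lists below 0 in all 3 settings.

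Immune genes were mixed. Interferon-stimulated genes had a median of -0.40, with 1 lower and 0 higher of 38 at an unadjusted p below 0.05 (5.47% of all genes were lower). The list's median was -0.48 without CON1 and CON3 and -0.70 without HG2 and HG3, where 8 of 38 were lower and 2.31% of all genes were. ISG15, a ubiquitin-like modifier induced by interferon, had 2.36, 382, 66, 149.6 and 86.9 FPKM in HG1 to HG5, against 400.4, 215, 154, 267 and 128 FPKM in CON1 to CON5. HG1 was the lowest of all libraries and HG2 was exceeded only by CON1, so the HG group spanned nearly the whole range. OAS1, a sensor of viral RNA, had 10.4, 104, 39.8, 56.6 and 40.4 FPKM in HG1 to HG5, against 95.1, 65.3, 47.4, 83.9 and 55.9 FPKM in CON1 to CON5, with HG1 the lowest and HG2 the highest library. UBE2L6, the conjugating enzyme for ISG15, had 5.95 to 18.8 FPKM in HG, against 13.5 to 28 FPKM in CON and was the 1 entry with an unadjusted p below 0.05 (-0.99 ± 0.33).

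Myeloid markers gave 2 higher and 3 lower of 20 (median -0.37), beside 19.8% and 5.47% of all genes. With scaling these were 1 and 6, beside 11.8% and 11.6%. Their summed level was 122 to 348 FPKM in HG and 232 to 404 FPKM in CON. CD5L, which macrophages release into the blood, had 0.0460, 0.643, 5.56, 2.47 and 0.111 FPKM in HG1 to HG5, against 10.1, 5.46, 13, 11 and 40.9 FPKM in CON1 to CON5. HG3 lay just above CON2, HG1 and HG5 were near 0, and the relative difference was -2.87 ± 0.58. FCGR3A, an Fc receptor, had 3.18 to 8.65 FPKM in HG, against 7.69 to 12.8 FPKM in CON, and TYROBP, a signalling adaptor of myeloid and NK cells, had 14.3 to 24.4 FPKM in HG, against 21.3 to 32.1 FPKM in CON. CSF1R, the receptor that macrophages need to survive, leaned the other way with 10.5 to 18.6 FPKM in HG, against 5.68 to 11.3 FPKM in CON. T and NK cell markers gave 0 higher and 0 lower of 13 (median -0.28), beside 19.8% and 5.47% of all genes. With scaling 0 were higher and 2 lower, beside 11.8% and 11.6%. CD2 had 3.18 to 6.73 FPKM in HG, against 5.83 to 8.85 FPKM in CON. JCHAIN, which joins secreted IgA, had 1.77 to 28 FPKM in HG, against 17.2 to 69.1 FPKM in CON, with HG1 far under the other HG libraries.

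Toll-like receptors and their adaptors gave 7 higher and 1 lower of 38 (median 0.07), near the share of all genes, and 3 and 2 with scaling. MYD88, the shared adaptor, had 12.8 to 23.2 FPKM in HG, against 3.73 to 15.7 FPKM in CON, RELA, a subunit of NF-kB, had 27.5 to 36.4 FPKM in HG, against 14.1 to 30.2 FPKM in CON, and NFKBIB, an inhibitor of NF-kB, had 7.59 to 13.5 FPKM in HG, against 11 to 21.4 FPKM in CON. Cytokines, chemokines and their receptors gave 5 higher and 0 lower of 39 (median -0.09), beside 19.8% and 5.47% of all genes. With scaling these were 3 and 2, beside 11.8% and 11.6%. IL17RA, a receptor for IL-17, had 7.79 to 13.2 FPKM in HG, against 2.09 to 7.51 FPKM in CON. TNFRSF1A, a receptor for TNF, had 28.6 to 39.3 FPKM in HG, against 12.4 to 25.3 FPKM in CON, and in both CON3 was the lowest library. Antimicrobial and alarm proteins gave 2 higher and 3 lower of 23 (median -0.38), beside 19.8% and 5.47% of all genes. With scaling 0 were higher and 5 lower, beside 11.8% and 11.6%. S100A8, a calprotectin subunit, had 617, 1325, 1188, 2859 and 1257 FPKM in HG1 to HG5, against 3409.7, 1579, 9132, 1985 and 3036 FPKM in CON1 to CON5. CON3 was the highest library by far, HG4 lay inside the CON range, and the relative difference was -1.45 ± 0.48, or -0.78 without CON1 and CON3. S100A11 had 120.4 to 168 FPKM in HG, against 158 to 235 FPKM in CON, and DUOX1, which makes hydrogen peroxide at the surface, had 4.81 to 8.79 FPKM in HG, against 1.54 to 6.27 FPKM in CON.

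Keratins and genes of the cornified surface showed no direction that held. Keratins gave 0 higher and 0 lower of 18, beside 19.8% and 5.47% of all genes, and 3 of 18 lay above the median gene. Their median was -0.19 with all libraries and 0.07 without CON1 and CON3. KRT15, a keratin of basal cells, had 596 to 1185 FPKM in HG, against 527 to 816 FPKM in CON. Cornified envelope genes gave 2 higher and 1 lower of 27 (median 0.06, and 0.25 without CON1 and CON3), beside the same shares of all genes. With scaling 0 were higher and 1 lower, beside 11.8% and 11.6% of all genes. ALOX15B, a lipoxygenase of differentiating epithelia, had 15.2 to 58.2 FPKM in HG, against 13.4 to 20.7 FPKM in CON, SERPINB2 had 22.3 to 74.3 FPKM in HG, against 14.5 to 43.3 FPKM in CON, and ANXA1, an abundant annexin, had 1629.7 to 2542 FPKM in HG, against 2134 to 3173 FPKM in CON. The markers used to check the tissue gave 7 higher and 0 lower of 16 (median 0.30), where 19.8% of all genes were higher. Several of the higher markers, among them DSP, PKP1, CDH1, SLC9A3 and BDH1, were already counted in lists above, so this count is not a separate result. Type I keratins are close relatives, so reads may be shared among them.

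Fibroblast and matrix genes gave 12 higher and 0 lower of 32, where 19.8% of all genes were higher. With scaling these were 8 and 0, where 11.8% of all genes were higher. The list's median was 0.37, 0.14 without CON1 and CON3 and 0.25 without HG2 and HG3. Without CON1 and CON3 3 were higher and 1 lower, near the 9.28% of all genes that were higher. Without HG2 and HG3 3 were higher and 0 lower, near the 8.31% of all genes. Its members summed to 2150 to 3489 FPKM in HG and 1256 to 2323 FPKM in CON. COL1A1, a chain of type I collagen, had 455, 691, 349, 437 and 371 FPKM in HG1 to HG5, against 268, 288, 152, 276 and 241 FPKM in CON1 to CON5. The groups did not overlap (0.73 ± 0.22). COL6A2 had 55.1 to 117 FPKM in HG, against 15.1 to 71.9 FPKM in CON. Endothelial genes gave 5 higher and 0 lower of 21 (median 0.13), near the share of all genes, and VWF had 21.7 to 38.6 FPKM in HG, against 13.9 to 24.1 FPKM in CON. Smooth muscle genes had a median of 1.09 with all libraries and -0.35 without HG2 and HG3, and 2 of 13 had an unadjusted p below 0.05. These were SYNPO2, with 5.94, 34.9, 26, 3.83 and 2.56 FPKM in HG1 to HG5, against 3.88, 2.86, 1.18, 2.92 and 4.04 FPKM in CON1 to CON5, and KCNMB1, with 2.39 to 14.9 FPKM in HG, against 1.28 to 4.26 FPKM in CON. Cell cycle genes gave 5 higher and 1 lower of 52 (median -0.13), a share under the 19.8% of all genes that were higher, and 3 higher and 5 lower with scaling. Of the 52, 18 lay above the median gene. CCND2, a cyclin of the G1 phase, had 54.1, 21.6, 26.3, 22.8 and 32.6 FPKM in HG1 to HG5, against 20.5, 17.8, 9.02, 15.3 and 12.1 FPKM in CON1 to CON5. HG1 was the highest, and the groups were apart before median-ratio scaling and overlapped after it (0.82 ± 0.27). PCNA, the 1 lower entry, had 11.5 to 29.4 FPKM in HG, against 23.0 to 35.6 FPKM in CON (-0.80 ± 0.21).

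**Figure D5:**
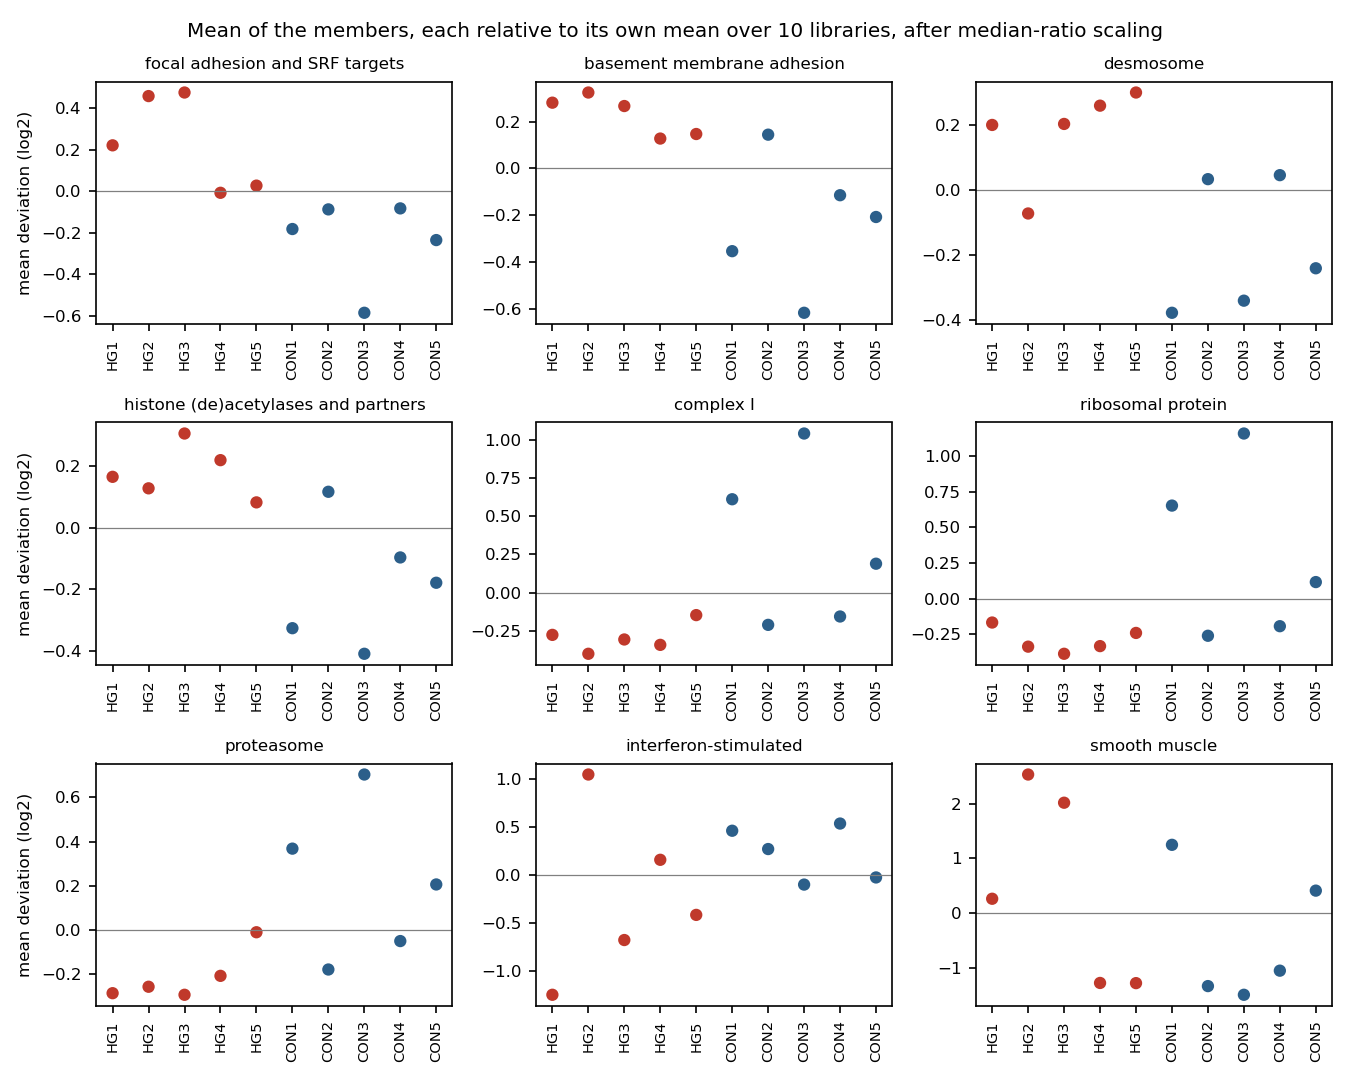
Mean of a list's members in each library, on log2(FPKM + 1) after median-ratio scaling, each member relative to its mean over the 10 libraries, HG in red and CON in blue, 1 point per library. CON1 and CON3 hold the highest complex I, ribosomal protein and proteasome values, CON2 and CON4 lie near HG in these, and the interferon list spans its whole range within HG, between HG1 and HG2.

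Spread within the group was smaller in HG than in CON when all libraries were used. The SD of log2(FPKM + 1) was lower in HG for 72.2% of the genes tested, with a median SD of 0.218 in HG and 0.350 in CON. Without CON1 and CON3 the SD was lower in HG for 48.3% of genes, and the median SD was 0.218 in HG and 0.215 in CON.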

How the data were processed

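Expression was measured by RNA-seq in 10 libraries of ruminal epithelium, HG1 to HG5 and CON1 to CON5. Each library has its own table of FPKM values, made and deposited by the authors, with the same 19304 genes in each, per the file headers. The submitters' processing notes list HISAT2 and StringTie 1.3.4d without saying what each did. The genome build was not given in the sources used here, nor was the annotation. No steps of whole reads were found among low FPKM values, so total reads per library are unknown and neither a counting interval nor a count test was possible. FPKM is relative within a library, so a few abundant genes shift all others. Symbols came from the tables, except that RefSeq (ARS-UI_Ramb_v3.0, used for names only) gave one to 346 entries known by a number.

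The filter of 1 FPKM in 5 or more of the 10 libraries left 12532 genes, 10902 of them with a symbol. limma 3.58.1 in R 4.3.3 (trend, robust with statmod 1.5.0) was run on log2(FPKM + 1), which understates differences of low genes, with Benjamini-Hochberg adjustment over all 12532 genes and a threshold of 0.05. The same fit was run after dividing each library by its median-ratio factor. Library measures were compared with exact permutation tests over 252 assignments of 5 against 5, of which the smallest two-sided p is 0.00794. The fit was tested on simulated data. The comparison, the 52 gene lists and the rule for naming genes were chosen with earlier results of these data known. Lists are described by counts and medians, with no test. Named genes were those with the 10 smallest p per direction in either fit, or with the 10 largest differences per direction where groups do not overlap under both scales (all with a symbol and averaging 5 FPKM or more in the higher group), and the 5 members of each list with the smallest p, 257 in all, of which the text names some. Alternatives were median-ratio scaling, quantile normalization, limma without trend and robust fitting, a smaller pseudocount (0.1), other filters (none, or 5 FPKM), weights per library, a block for the replicate number, all 15 libraries in the fit, and each library or CON1 with CON3 left out. Leaving out HG2 with HG3 and a smooth muscle covariate were chosen after seeing the data.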

Additional observations from a re-analysis of the deposited data

Results flagged for a closer look

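Of 274 group-by-measure combinations examined, 15 had a highest or lowest library far from the other 4 of its group, and chance alone gives about 1 in 20. The called gene was lowest in HG5, at 2.08 FPKM. LZTR1 was lowest in HG2 at 5.14 FPKM, IER3IP1 was lowest in HG4 at 8.05 FPKM, and DSP was lowest in HG2 at 121.5 FPKM. PKP1 was highest in HG4 at 198 FPKM, and MGST2 was highest in HG4 at 69.2 FPKM. NOTCH3 and NDUFA5 were lowest in HG5, at 19.9 and 9.61 FPKM. JCHAIN was lowest in HG1, at 1.77 FPKM, and HG1 had the highest ribosomal share of its group, 26.6%. Among the CON libraries, SENP8 was lowest in CON2, at 9.44 FPKM. AMOTL1, IL17RA, TNFRSF1A and COL1A1 were lowest in CON3, at 2.32, 2.09, 12.4 and 152 FPKM.

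The HP libraries were not compared with either group here and served only in the fit of all 15 libraries. In them, the called gene was above the highest CON library, 0.0360 FPKM, in HP1 at 0.0525 FPKM, HP4 at 4.11 FPKM and HP5 at 0.0525 FPKM. HP4 alone was at the level of the HG libraries.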

How the results depend on the processing

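The single call higher in HG held under median-ratio scaling, quantile normalization, a pseudocount of 0.1, no filter, array quality weights, the smooth muscle covariate and each library left out. It was lost (0 calls) without CON1 and CON3, with or without scaling, without HG2 and HG3, and with a filter at 5 FPKM, which removes the gene. Its difference relative to the median gene was 2.40 without CON1 and CON3 and 2.13 without HG2 and HG3, and 2.28 with all libraries. The fit of all 15 libraries called 2 genes higher, with limma's smallest adjusted p at 0.0462, and array quality weights called 1 lower. With 1 library left out, calls were 1 to 906 higher and 0 to 237 lower, the most without CON2, the CON library most like HG on the first principal component. At an unadjusted limma p below 0.05, quantile normalization gave 1424 higher and 1541 lower, median-ratio scaling 1485 and 1448, the filter at 5 FPKM 1602 higher, leaving out CON1 and CON3 1163 higher (790 with scaling), and leaving out HG2 and HG3 1042 higher and 290 lower. With 1 library left out these counts were 1657 to 3375 higher and 461 to 902 lower. Genes whose groups do not overlap numbered 290 higher and 342 lower with median-ratio scaling, 272 and 407 with quantile normalization, and 908 and 233 without HG2 and HG3. Without CON1 and CON3 there were 412 lower (597 with scaling). With 1 library left out there were 590 to 1506 higher and 159 to 431 lower, and fewer libraries overlap less by construction. The number of lists with a median above that of all genes was 25 and ranged over 22 to 31.

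The median FPKM averaged 2.94 ± 0.210 in HG and 2.36 ± 0.601 in CON (SD, n = 5 each), a difference of 0.583 with an exact permutation p of 0.0635. With 1 library left out the difference was 0.373 to 0.737. The median-ratio factor difference, 0.140, was 0.0865 to 0.170 with 1 library left out, 0.0480 without CON1 and CON3 and 0.133 without HG2 and HG3, the last with an exact permutation p of 0.179. That p was 0.0794 without HG2, 0.0635 without HG3, 0.0714 without HG4 and 0.0556 without HG5. With any other library left out it was 0.0159 to 0.0397. The share of genes with a lower SD in HG, 72.2%, was 64.7% with quantile normalization, 73.1% with a pseudocount of 0.1, 64.5% with no filter, 73.8% with the filter at 5 FPKM, 75.8% without HG2 and HG3, 48.3% without CON1 and CON3 (48.7% with scaling) and 63.1% to 74.8% with 1 library left out. Causes were not tested.

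The replicate numbers did not pair the libraries. Same-numbered HG and CON libraries had correlations of deviations of -0.088 to 0.06, and 2 of 10 libraries correlated best with their own number. With the number as a block, 1 gene was called higher and 0 lower, and 2289 and 573 had an unadjusted p below 0.05 (1275 and 1252 with median-ratio scaling). Depth is unknown, so the counting error of low values, such as those of the called gene in CON, is unknown too.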
